A study of Mus musculus with 3 samples.

Results

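The 10 genes described here belong to interleukin-10 (IL-10) receptor signaling: the ligand Il10, the receptor chains Il10ra and Il10rb, the signal transducer Stat3, the inhibitor Socs3, and the target genes Bcl3, Nfil3, Sbno2, Il4ra, and Etv3. They were selected by name, as every probe that was not a control and carried 1 of these gene names on the array. This gave 13 probes for 10 of the 33597 gene names measured on all arrays. The list of names was chosen with earlier results of these data known. BMDMs, macrophages grown from C57BL/6J bone marrow for 4 to 6 days with M-CSF (mouse age not given), were stimulated for 20 h before RNA was taken. The CpG array held RNA of BMDMs given CpG DNA, a ligand of TLR9, with the IL-10 receptor free. The IFN-γ + αIL-10R array held RNA of BMDMs given IFN-γ and an antibody that blocks the IL-10 receptor, and the Triple array RNA of BMDMs given all of these agents. The labels shorten the name of the blocking antibody to IL-10RB, which is a reagent and not the gene Il10rb. Each condition had 1 array, so no difference has a replicate check and no test was made between conditions.

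IL-10 is a cytokine that macrophages secrete after Toll-like receptor stimulation and that acts back on the same cells. It binds a receptor made of the ligand-binding chain Il10ra and the chain Il10rb, which is shared with receptors of related cytokines. The kinases JAK1 and TYK2, which sit on these chains, phosphorylate STAT3, and STAT3 enters the nucleus and raises target genes whose products restrain inflammatory transcription. In macrophages this loop is known for lowering the production of inflammatory cytokines.

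The design holds 3 comparisons. Triple against CpG asks how gene expression differs when IFN-γ and the receptor block are added to CpG, and the agents change together there, so their parts cannot be told apart. Triple against IFN-γ + αIL-10R asks what CpG adds while IFN-γ is present and the receptor is blocked. CpG against IFN-γ + αIL-10R sets arrays side by side that differ in every agent. Each array enters a pair of these comparisons, so the comparisons are not independent. BMDMs without stimulation, and BMDMs with CpG and IFN-γ but a free receptor, were not measured on these arrays.

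A scaled signal is the scanner's background-subtracted intensity on a linear scale, after each array was multiplied by a constant that makes the 75th percentile equal across arrays. A log2 fold is the difference between the log2 scaled signals of a pair of arrays, the first named minus the other. Where 3 log2 folds are given in a row, they stand for Triple against CpG, Triple against IFN-γ + αIL-10R, and CpG against IFN-γ + αIL-10R, and 3 signals in a row stand for CpG, IFN-γ + αIL-10R, and Triple. A gene is called higher or lower when it differs by more than 2-fold, which is 1 on the log2 scale, and is well above background on the brighter array. "Well above background" is the scanner software's mark for a spot whose signal clearly exceeds its background. Probes differ in how strongly they bind, so member signals are compared between arrays and not between genes. All 13 member probes cleared that mark on each array, and none was saturated, so no member entered a comparison through 1 bright array alone. For 3 members, Stat3, Sbno2, and Il4ra, the array carries 2 probes, and the brighter one stands for the gene. Differences between replicate spots within an array give a technical SD of 0.13 for a log2 fold between single spots, which says nothing about variation between cultures.

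In Triple against CpG, 4 of the 10 members were called higher (Il10, Stat3, Socs3, and Nfil3), beside 7.47% of 18335 genes. None of the members was called lower in that comparison, beside 8.34% of all genes. In Triple against IFN-γ + αIL-10R, 3 members were higher (Il10, Socs3, and Bcl3), beside 6.57% of 18063 genes, and none was lower, beside 9.31%. In CpG against IFN-γ + αIL-10R the same names were higher, Il10, Socs3, and Bcl3, beside 5.06% of 18280 genes, and 2 members were lower, Il10ra and Stat3, beside 5.84%. The share of members called higher, 40% in the first comparison and 30% in each of the others, was thus above that of all genes in each comparison. The share called lower was above that of all genes only in CpG against IFN-γ + αIL-10R, where it was 20%. Because the members were chosen with earlier results of these data known, these shares describe them and are not a test.

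**Figure D1:**
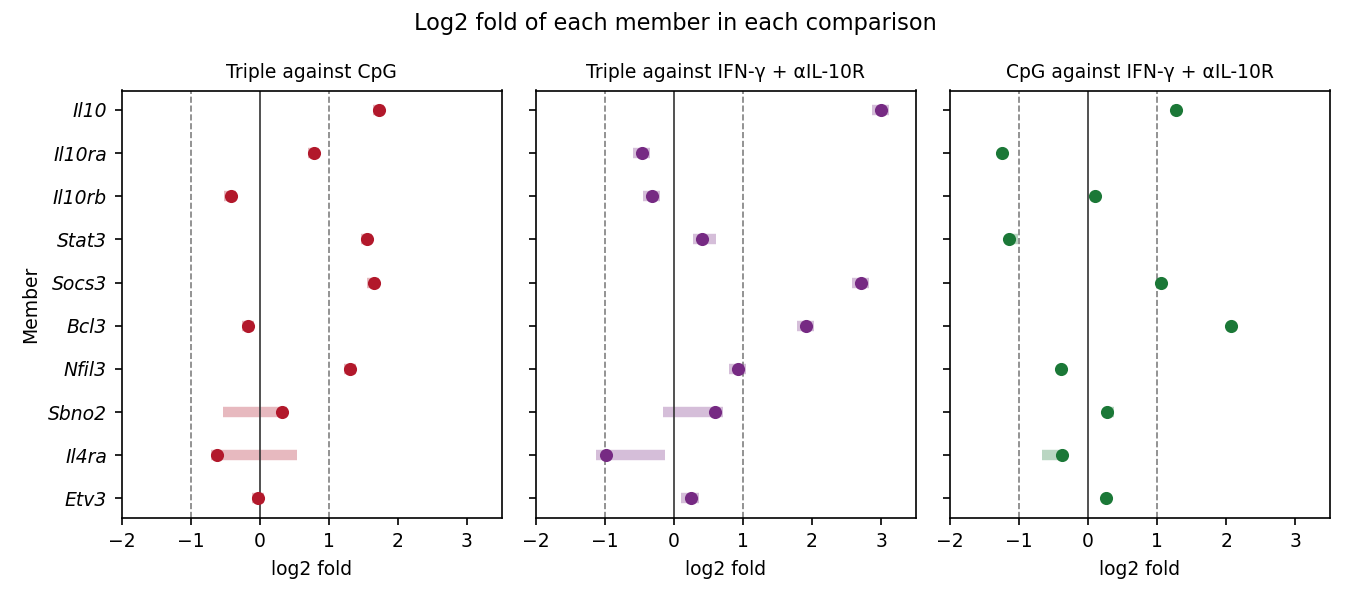
Log2 fold of each member (points) in each comparison, with bars from the lowest to the highest value under the alternative processing and dashed lines at 2-fold. Il10 and Socs3 lie right of the upper line in all 3 comparisons, and the bars of Sbno2 and Il4ra cross 0 in Triple against CpG because their probes differ. The short Etv3 bar also crosses 0 there, from −0.11 to 0.06, under other scalings.

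The median log2 fold of the members was 0.55 in Triple against CpG, 0.50 in Triple against IFN-γ + αIL-10R, and 0.18 in CpG against IFN-γ + αIL-10R. Over all genes tested, these medians were −0.06, −0.05, and 0.0038. Taken without sign, the median member log2 fold was 0.70, 0.76, and 0.72, beside 0.32, 0.32, and 0.26 for the 15894 genes that cleared the mark on each array. The typical member thus differed more between arrays than the typical gene, which is a description only, given how the members were chosen. Over the comparisons, 6 of the 10 members were called at least once, beside 23.4% of 18812 genes. The other 4, Il10rb, Sbno2, Il4ra, and Etv3, were called in none.

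**Figure D2:**
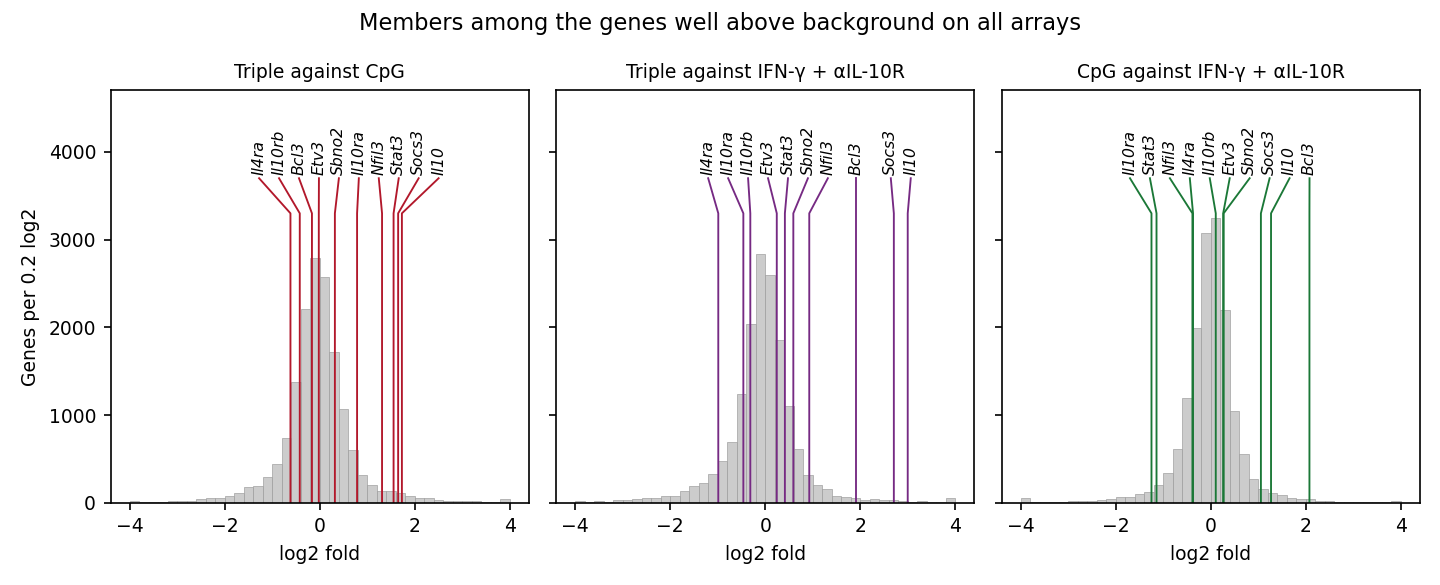
Log2 folds of the 15894 genes well above background on each array (grey bars, genes per bin, with values beyond ±4 placed in the end bins), with a line at each member. In Triple against IFN-γ + αIL-10R the Il10 line lies at 3.0 and the Socs3 line at 2.71, far to the right of the bulk of genes.

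The Triple array was the brightest for 5 members (Il10, Stat3, Socs3, Nfil3, and, by its brighter probe only, Sbno2), beside 31.9% of the 15894 genes. CpG was the brightest for 3 members (Il10rb, Bcl3, and Etv3, the last by a margin of 0.02 that other scalings turned), beside 33.8% of genes, and IFN-γ + αIL-10R for 2 (Il10ra and Il4ra), beside 34.3%. The dimmest array was IFN-γ + αIL-10R for 5 members, CpG for 3, and Triple for 2, beside 30.0%, 29.4%, and 40.5% of genes. Sbno2 is among the 5, and Il4ra among the 2 with Il10rb, by their brighter probes only. By the dimmer probes, Triple was dimmest for Sbno2 and CpG for Il4ra. Several of these orders rest on differences that did not pass 2-fold, as given for each member.

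**Figure D3:**
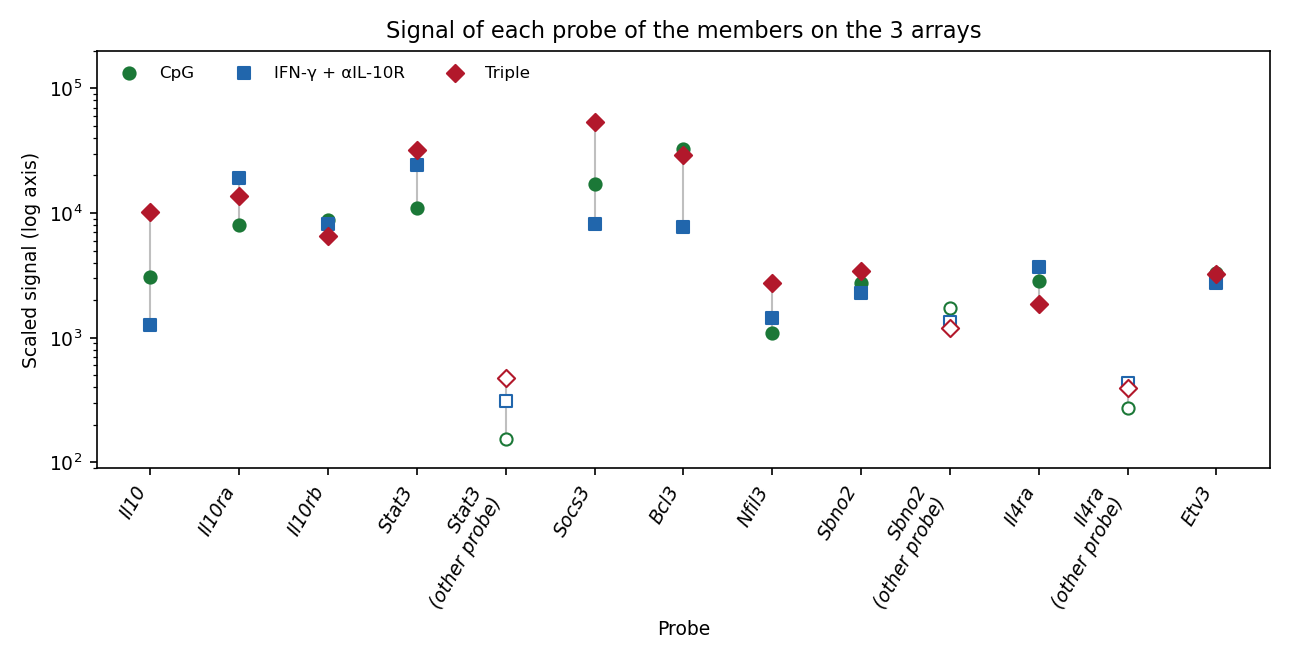
Scaled signal (log axis) of each member probe on the CpG, IFN-γ + αIL-10R, and Triple arrays, with open symbols for the dimmer probe of a gene. The Stat3 probes keep the same order of arrays, whereas those of Sbno2 and Il4ra place Triple differently.

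Il10 encodes the ligand. Its scaled signal was 3059.9 on the CpG array, 1269.6 on the IFN-γ + αIL-10R array, and 10159 on the Triple array. Triple was thus highest and IFN-γ + αIL-10R lowest, with more than 2-fold between neighbours in that order. The log2 fold was 1.73 in Triple against CpG (3.32-fold), 3.0 in Triple against IFN-γ + αIL-10R (8.0-fold), and 1.27 in CpG against IFN-γ + αIL-10R (2.41-fold). Under 13 alternative ways of processing, the first ranged from 1.64 to 1.80, the second from 2.87 to 3.11, and the last from 1.22 to 1.32, so all stayed past 2-fold. Among these, changed filters could not move any member fold, since every member probe was well above background on each array. Changed probe choices could not move the folds of members with 1 probe, such as Il10. Among the 15894 genes, Il10 ranked 392 from the highest in Triple against CpG, 105 in Triple against IFN-γ + αIL-10R, and 394 in CpG against IFN-γ + αIL-10R. Arrays of RNA from a culture do not tell more RNA per cell from more cells that make it, and the same holds for every member.

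The Il10 probe is matched to RefSeq NM_010548 and lies on the plus strand at chr1:132920943-132921002 of mm9. It was printed as 10 spots on each array, which gives the only within-array spread for the ligand. The spots ran from 2893 to 3319 on CpG, from 1194 to 1401 on IFN-γ + αIL-10R, and from 9575 to 11088 on Triple. No spot of an array fell within the range of another array. Their SD on the log2 scale was 0.06, 0.06, and 0.05, and the standard error that these spots give to each Il10 fold was 0.03, a technical error only.

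**Figure D4:**
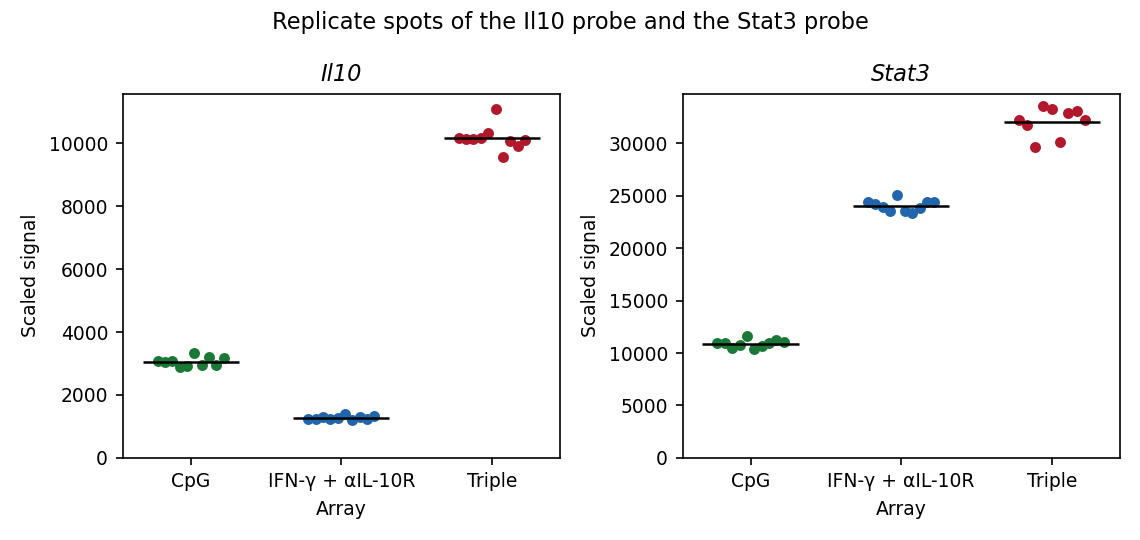
Scaled signal of every kept replicate spot of the Il10 probe (left) and of the brighter Stat3 probe (right) on each array, with a line at the geometric mean. The spots of the 3 arrays do not overlap for either gene, and Il10 spots on Triple start at 9575, above the highest CpG spot at 3319.

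Of 17 listed regulators of Il10 transcription, 16 were measured and tested, and Rela was left out for outlier marks. In Triple against CpG 2 were higher and 0 lower, in Triple against IFN-γ + αIL-10R 4 were higher and 2 lower, and in CpG against IFN-γ + αIL-10R 4 were higher and 1 lower. Over all genes, 7.47%, 6.57%, and 5.06% were called higher in these comparisons and 8.34%, 9.31%, and 5.84% lower. The lists here and below were written with earlier results of these data known. The count of 2 higher in Triple against CpG fell to 1 without scaling, with spike-in scaling, relative to Actb, and by the mean or the lowest probe, and the 2 lower in Triple against IFN-γ + αIL-10R fell to 1 with normexp background correction or with outlier spots kept. Batf, an AP-1 family factor, had signals of 8457 on CpG, 1638 on IFN-γ + αIL-10R, and 20135 on Triple, the same order as Il10, with log2 folds of 1.25, 3.62, and 2.37. Prdm1 measured 1131, 445, and 1283 on these arrays and Bhlhe40 169, 76.5, and 287, and both were higher than on IFN-γ + αIL-10R in CpG and in Triple, although Bhlhe40 in CpG gave 0.69 with normexp. Of 6 listed IL-10 family ligands, 5 were measured and 2 tested, and the only call was Ifnl3, lower in CpG against IFN-γ + αIL-10R by a log2 fold of −1.23, which did not pass 2-fold with normexp or by the mean of its probes. Il20, Il22, and Il24 were not well above background on any array.

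Il10ra encodes the chain that binds IL-10 and gives the receptor its specificity. Its probe (NM_008348, minus strand, chr9:45062237-45062296 of mm9) measured 7969 on CpG, 18925 on IFN-γ + αIL-10R, and 13756.5 on Triple. CpG was thus the lowest array and IFN-γ + αIL-10R the highest. It was lower in CpG against IFN-γ + αIL-10R, at a log2 fold of −1.25 (2.37-fold), which stayed past 2-fold under all 13 alternatives (−1.29 to −1.20). Triple lay between the other arrays, at 0.79 against CpG and −0.46 against IFN-γ + αIL-10R, and neither of these passed 2-fold under any alternative.

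Il10rb encodes the chain that IL-10 shares with IL-22 and lambda interferons. Its probe (NM_008349, plus strand, chr16:91425744-91425803 of mm9) measured 8818 on CpG, 8196 on IFN-γ + αIL-10R, and 6595 on Triple. Log2 folds were −0.42 in Triple against CpG and −0.31 in Triple against IFN-γ + αIL-10R, and none of the 3 comparisons called it. CpG and IFN-γ + αIL-10R differed by 0.11, less than the technical SD of 0.13, so their order is not resolved. The receptor chains thus behaved differently: Il10ra differed by up to 1.25 between arrays and Il10rb by at most 0.42. Of 5 listed chains of related receptors, 4 were measured and 1, Il20rb, was tested by the probe that stands for the gene, with 0 calls in each comparison.

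Stat3 encodes the transcription factor that carries the signal from the receptor to the nucleus. The brighter of its probes (NM_213659, minus strand, chr11:100749598-100749657 of mm9) measured 10907 on CpG, 24066 on IFN-γ + αIL-10R, and 32070.5 on Triple. Triple and IFN-γ + αIL-10R were both high and CpG was low. The log2 fold was 1.56 in Triple against CpG (2.94-fold), 0.41 in Triple against IFN-γ + αIL-10R, and −1.14 in CpG against IFN-γ + αIL-10R (2.21-fold lower). The first and the last stayed past 2-fold under all 13 alternatives, at 1.46 to 1.63 and −1.18 to −1.01.

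The dimmer Stat3 probe measured 155, 313, and 477 on CpG, IFN-γ + αIL-10R, and Triple. Its log2 folds of 1.62, 0.61, and −1.01 have the same signs, and the same comparisons pass 2-fold. The brighter probe was printed as 10 spots, of which 9 were kept on Triple after an outlier mark. These ran from 10406 to 11608 on CpG, from 23325 to 25110 on IFN-γ + αIL-10R, and from 29667 to 33610 on Triple, without overlap. The gap of 0.41 between Triple and IFN-γ + αIL-10R did not pass 2-fold. Its standard error from the spots was 0.02, which covers technical error within an array only.

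Of 10 listed JAK kinases and other STAT factors, 9 were tested, and Tyk2 was left out for an outlier mark on the CpG array. Jak1, the kinase bound to Il10ra, measured 10761 on CpG, 10855 on IFN-γ + αIL-10R, and 11731 on Triple, with log2 folds of 0.12, 0.11, and −0.01. It therefore differed by less than the technical SD in each comparison, unlike Stat3. The list had 2 genes higher in Triple against CpG, 2 higher in Triple against IFN-γ + αIL-10R, and 2 lower in CpG against IFN-γ + αIL-10R. The matching shares over all genes were 7.47%, 6.57%, and 5.84%. The count in Triple against IFN-γ + αIL-10R fell to 1 with normexp, without scaling, with spike-in scaling, and relative to Actb, and that in CpG against IFN-γ + αIL-10R fell to 1 without scaling, with median scaling, by the authors' table, and when every probe entered the 75th percentile. Jak2 measured 3092, 4945, and 11869, and was higher on Triple than on either other array, by log2 folds of 1.94 and 1.26. For Stat3, in contrast, IFN-γ + αIL-10R lay within 2-fold of Triple.

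Socs3 encodes a feedback inhibitor of JAK kinases that STAT3 induces. Its probe (NM_007707, minus strand, chr11:117827480-117827539 of mm9) measured 17038 on CpG, 8195 on IFN-γ + αIL-10R, and 53551 on Triple. As for Il10, Triple was the highest and IFN-γ + αIL-10R the lowest, with more than 2-fold between neighbours. The log2 fold was 1.65 in Triple against CpG (3.14-fold), 2.71 in Triple against IFN-γ + αIL-10R (6.53-fold), and 1.06 in CpG against IFN-γ + αIL-10R (2.08-fold). The last lies close to the threshold, and its lowest value under the 13 alternatives was 1.01. Among the 15894 genes, these folds ranked 434, 137, and 549 from the highest. The CpG array, with a free receptor, thus lay between the 2 arrays with a blocked one. IFN-γ and the block were given together, so the part of the receptor in this order cannot be told apart.

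The promoter window of Socs3 is shown because the gene is a STAT3 target and moved with Il10 over the arrays. It is chr11:117969317-117969616 of GRCm38.p6, minus strand, from 250 bases before to 50 after the start, taken from RefSeq and written 5′ to 3′, with the STAT motif TTCNNNGAA in capitals.
Socs3: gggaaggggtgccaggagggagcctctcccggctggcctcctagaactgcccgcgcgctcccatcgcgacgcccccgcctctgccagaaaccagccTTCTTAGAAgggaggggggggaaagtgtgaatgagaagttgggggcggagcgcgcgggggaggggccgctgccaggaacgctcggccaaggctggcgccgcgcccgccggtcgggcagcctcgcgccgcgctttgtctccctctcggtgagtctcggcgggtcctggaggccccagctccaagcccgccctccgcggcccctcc
The match starts 154 bases before the start site. The motif, searched on both strands, occurs in 8.30% of 32851 promoter windows and in those of 9.55% of 27025 genes. Windows were available for 7 of the 10 members (Il10, Il10ra, and Il10rb had none), and 2 of these 7, Socs3 and Sbno2, held the motif. A match is a description of letters and not a binding site.

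Of 15 other listed inhibitors (SOCS, PIAS, and phosphatase genes), 14 were tested. The counts were 2 higher in Triple against CpG, 1 higher in Triple against IFN-γ + αIL-10R, and 2 lower in CpG against IFN-γ + αIL-10R, with 0 in each opposite direction. The matching shares over all genes were 7.47% and 6.57% higher and 5.84% lower. Socs1 measured 1040 on CpG, 40592 on IFN-γ + αIL-10R, and 51914 on Triple, and its log2 fold was 5.64 in Triple against CpG and −5.29 in CpG against IFN-γ + αIL-10R. Cish measured 66.9, 138, and 332, with log2 folds of 2.31, 1.27, and −1.04, of which normexp left the last 2 short of 2-fold (0.93 and −0.62), and the last also fell short by the authors' table and when every probe entered the 75th percentile. Socs1 was thus high on both arrays with IFN-γ, whereas Socs3 was high on Triple, with CpG between the other arrays.

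Bcl3 encodes a nuclear IκB protein that works with NF-κB p50 and p52 and is raised by IL-10 in macrophages. Its probe (NM_033601, minus strand, chr7:20393826-20393885 of mm9) measured 32776 on CpG, 7764 on IFN-γ + αIL-10R, and 29284 on Triple. Both arrays with CpG were high and the array without it was low. Log2 folds were 2.08 in CpG against IFN-γ + αIL-10R (4.22-fold) and 1.92 in Triple against IFN-γ + αIL-10R (3.77-fold), and these stayed past 2-fold under all 13 alternatives. In Triple against CpG it was −0.16, which ranged from −0.26 to −0.09 under the alternatives and is close to the technical SD. Bcl3 was the member with the largest log2 fold in CpG against IFN-γ + αIL-10R, at rank 137 of the 15894 genes.

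The promoter window of Bcl3, chr7:19822706-19823005 of GRCm38.p6 on the minus strand (RefSeq), is shown because it held a match to the NF-κB motif, the factor family that its product binds. The match is in capitals.
Bcl3: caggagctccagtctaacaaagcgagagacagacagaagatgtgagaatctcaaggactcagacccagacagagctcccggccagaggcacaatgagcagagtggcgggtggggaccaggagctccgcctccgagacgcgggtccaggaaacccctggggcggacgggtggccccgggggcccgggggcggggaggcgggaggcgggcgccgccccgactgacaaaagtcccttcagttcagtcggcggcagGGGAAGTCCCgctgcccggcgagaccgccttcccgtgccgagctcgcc
It starts 2 bases after the start site. The NF-κB motif, searched on both strands, occurs in 4.51% of the windows and in those of 5.14% of genes. Of the 7 members with a window, 3 held it: Bcl3, Sbno2, and Il4ra. The windows of Stat3, Nfil3, and Etv3 held the letters of neither motif.

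Nfil3 encodes a bZIP repressor that IL-10 raises and that lowers Il12b in macrophages. Its probe (NM_017373, minus strand, chr13:53062578-53062637 of mm9) measured 1097 on CpG, 1433 on IFN-γ + αIL-10R, and 2726 on Triple. Triple was the highest array. The log2 fold was 1.31 in Triple against CpG (2.48-fold, 1.22 to 1.39 under the alternatives) and −0.39 in CpG against IFN-γ + αIL-10R. In Triple against IFN-γ + αIL-10R it was 0.93 (1.90-fold), just short of the threshold, and it passed 2-fold under 3 of 13 alternatives (75th percentile over all probes, median scaling, and the authors' table), with 1.04 as the highest value.

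Sbno2 encodes a helicase-family corepressor that IL-10 raises through STAT3. The brighter of its probes (NM_183426, minus strand, chr10:79520259-79520318 of mm9) measured 2769 on CpG, 2294 on IFN-γ + αIL-10R, and 3457 on Triple. The other probe measured 1734, 1331, and 1199, so that Triple was the highest array by 1 probe and the lowest by the other. The log2 fold in Triple against CpG was 0.32 by the brighter probe and −0.53 by the other, and in Triple against IFN-γ + αIL-10R it was 0.59 and −0.15. In CpG against IFN-γ + αIL-10R the probes gave 0.27 and 0.38. No direction is given for Sbno2 on Triple, and no comparison called it by either probe.

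RefSeq places 3 start sites in Sbno2, and a pair of these windows is shown because each held a STAT motif near the start. Both are on the minus strand of GRCm38.p6, window 1 at chr10:80102653-80102952 and window 2 at chr10:80101138-80101437, with the match to TTCNNNGAA in capitals.
Sbno2 window 1: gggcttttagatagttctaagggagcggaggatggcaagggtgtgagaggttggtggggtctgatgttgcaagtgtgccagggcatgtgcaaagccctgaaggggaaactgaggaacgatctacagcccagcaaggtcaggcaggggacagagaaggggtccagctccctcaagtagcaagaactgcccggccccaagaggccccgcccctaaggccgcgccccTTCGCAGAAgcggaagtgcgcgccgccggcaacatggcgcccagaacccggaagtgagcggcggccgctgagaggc
Sbno2 window 2: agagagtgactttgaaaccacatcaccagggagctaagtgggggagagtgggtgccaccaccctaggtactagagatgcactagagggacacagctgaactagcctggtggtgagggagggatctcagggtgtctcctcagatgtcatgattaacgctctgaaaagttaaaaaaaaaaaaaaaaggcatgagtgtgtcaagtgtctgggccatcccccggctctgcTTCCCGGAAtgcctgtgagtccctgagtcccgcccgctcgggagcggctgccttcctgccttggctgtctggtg
The matches start 26 and 24 bases before the start site. The last window held an NF-κB match and no STAT match. Sbno2 and Socs3 both held the STAT letters. Their log2 folds in Triple against CpG were 0.32 or −0.53 by probe for Sbno2 and 1.65 for Socs3. A link between the letters and the folds was not tested.

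Il4ra encodes the IL-4 receptor chain, which IL-10 raises in macrophages and which makes them more responsive to IL-4. The brighter of its probes (NM_001008700, plus strand, chr7:132722922-132722981 of mm9) measured 2867 on CpG, 3712 on IFN-γ + αIL-10R, and 1872 on Triple. By this probe Triple was the lowest array. Its log2 fold was −0.99 in Triple against IFN-γ + αIL-10R, just short of 2-fold, and it passed the threshold without scaling, with spike-in scaling, and relative to Actb, with −1.12 as the lowest value. The dimmer probe, at 271, 430.1, and 396, gave −0.12 in that comparison and 0.54 in Triple against CpG, where the brighter probe gave −0.61. The probes thus differ in sign in Triple against CpG, and both place CpG below IFN-γ + αIL-10R, at −0.37 and −0.66.

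Etv3 encodes an ETS-family repressor that IL-10 raises in macrophages. Its probe (NM_001083318, plus strand, chr3:87342947-87343006 of mm9) measured 3283 on CpG, 2738 on IFN-γ + αIL-10R, and 3241 on Triple. It varied least among the members, with 0.26 between the highest and the lowest array on the log2 scale. The log2 fold in Triple against CpG was −0.02, less than the technical SD, and it changed sign under the 75th percentile over all probes, median scaling, and the authors' table (−0.11 to 0.06 under all alternatives). The array without CpG was lowest, by 0.24 below Triple and 0.26 below CpG, which no comparison called.

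Of the 5 target genes, Nfil3 was called higher in Triple against CpG, beside 7.47% of all genes, and Bcl3 in the other comparisons, beside 6.57% and 5.06%. Of 9 listed partners of the members, 7 were tested, with 4 higher in Triple against CpG, 1 higher in Triple against IFN-γ + αIL-10R, and 1 higher and 3 lower in CpG against IFN-γ + αIL-10R. Over all genes, 5.84% were called lower in that last comparison. Nfkb2, which encodes the p52 partner of Bcl3, measured 3536 on CpG, 1635 on IFN-γ + αIL-10R, and 8328 on Triple, with log2 folds of 1.24, 2.35, and 1.11. The receptor partners of Il4ra, Il2rg at 13475, 28580, and 32930 and Il13ra1 at 38.6, 113, and 120, were both higher in Triple against CpG, at 1.29 and 1.64, although normexp gave 0.86 for Il13ra1 and 3 partners higher in place of 4. Il4 and Il13, the ligands of Il4ra, were not well above background on any array.

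Other genes known to respond to IL-10 were set beside the members. Of 13 other genes raised by IL-10, 11 were tested, and 2 were higher and 1 lower in Triple against CpG, 5 higher and 1 lower in Triple against IFN-γ + αIL-10R, and 5 higher and 1 lower in CpG against IFN-γ + αIL-10R. Their median log2 folds were 0.55, 0.75, and −0.07, beside 0.55, 0.50, and 0.18 for the members. Over all genes, 7.47%, 6.57%, and 5.06% were called higher and 8.34%, 9.31%, and 5.84% lower. Il1rn, the IL-1 receptor antagonist, measured 635 on CpG, 111 on IFN-γ + αIL-10R, and 5711 on Triple, the order of arrays also seen for Il10 and Socs3, with a log2 fold of 3.17 in Triple against CpG. Gadd45g went the other way, at 3141, 5582, and 1077, with −1.54 in that comparison.

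Of 15 listed genes repressed by IL-10, 12 were tested in each comparison with Triple and 11 in the other. In Triple against CpG 11 were higher and 0 lower, in Triple against IFN-γ + αIL-10R 10 were higher and 0 lower, and in CpG against IFN-γ + αIL-10R 5 were higher and 3 lower, with median log2 folds of at least 3.82, 3.79, and 0.98. The shares over all genes were 7.47%, 6.57%, and 5.06% higher and 8.34%, 9.31%, and 5.84% lower. The last 2 counts of higher genes fell to 5 and 2 when both arrays had to be well above background, since the rest were bounds against IFN-γ + αIL-10R. Nos2 measured 152 on CpG, 448 on IFN-γ + αIL-10R, and 73920.1 on Triple, and Il1b 1418 on CpG and 30701 on Triple. Il1b was not well above background on IFN-γ + αIL-10R, where the fold is computed against the lowest signal well above background on that array and is a bound, at least 10.17 on the log2 scale for Triple.

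**Figure D5:**
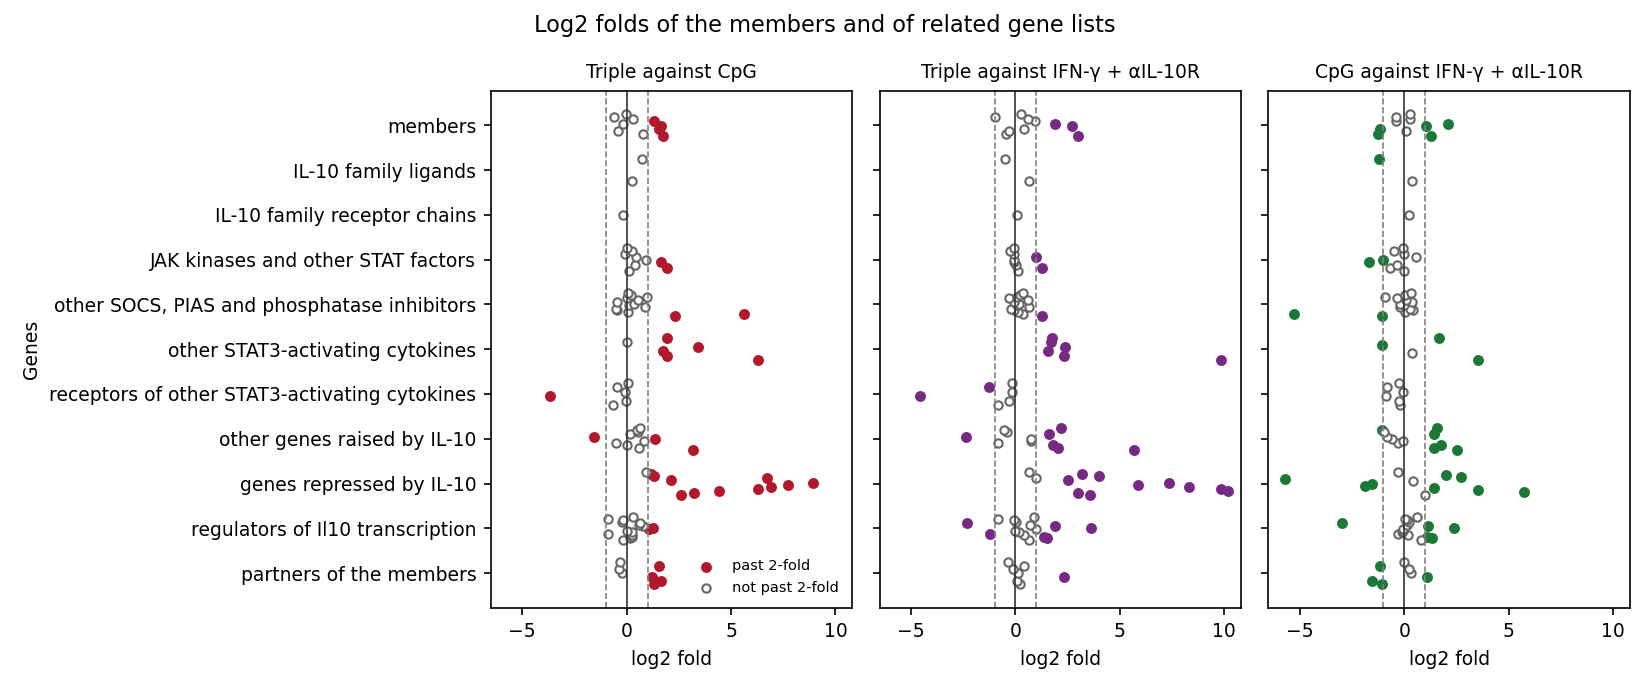
Log2 folds of the members and of the listed related genes in each comparison, filled where the gene passed 2-fold, with bounds drawn at their lowest value. The genes repressed by IL-10 reach 8.93 (Nos2) in Triple against CpG, whereas the members end at 1.73 (Il10).

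Cytokines other than IL-10 also activate STAT3, and 6 of 9 listed were tested in each comparison with Triple and 4 in the other. In Triple against CpG 5 were higher, in Triple against IFN-γ + αIL-10R 6 were higher, and in CpG against IFN-γ + αIL-10R 2 were higher and 1 lower. Over all genes, 7.47%, 6.57%, and 5.06% were called higher and 8.34%, 9.31%, and 5.84% lower. The first count fell to 3 with normexp and when both arrays had to be well above background, since Csf3 and Clcf1 were well above background on Triple alone and gave 0.72 and 0.89 with normexp, and the second fell to 4 with normexp and to 3 when both arrays had to clear the mark. The 1 lower, Il27, fell short of 2-fold with normexp. Il6 measured 313 on CpG and 24772 on Triple, a log2 fold of 6.31, and was not well above background on IFN-γ + αIL-10R. Il27 measured 379, 804, and 4112, with 3.44 in Triple against CpG and 2.35 in Triple against IFN-γ + αIL-10R. Thus Il6, Il27, Il10, and Socs3 were all highest on Triple, and whether these cytokines took part in the Socs3 signal was not tested. Of 8 listed receptors of such cytokines, 6 were tested, with 1 lower in Triple against CpG (Lifr), 2 lower in Triple against IFN-γ + αIL-10R (Lifr and Il21r), and 0 called in CpG against IFN-γ + αIL-10R. A dimmer Lifr probe gave −1.27 in that last comparison, past 2-fold, and another gave −0.83.

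Likeness of pattern was measured as the Euclidean distance between log2 signals over the 3 arrays, each gene centred on its own mean, among 10545 genes with a symbol and a signal well above background on each array. By the probes that stand for the genes, Il10 and Socs3 were the closest pair of members, at 0.21. The dimmer Sbno2 probe gave log2 folds of −0.53, −0.15, and 0.38, near the −0.42, −0.31, and 0.11 of Il10rb. Distances by dimmer probes were not measured, so the ranking of pairs holds for the brighter ones only. Socs3 ranked 5 of 10544 genes by nearness to Il10, and Il10 ranked 7 by nearness to Socs3. Stat3 and Nfil3 lay 0.55 apart, and the member nearest to Bcl3 was Socs3 at 1.29. By the brighter Sbno2 probe only, Sbno2 and Etv3 lay 0.28 apart, at ranks of 1261 and 2958, since many genes varied as little as they did. With 3 arrays, each distance rests on few points.

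The 2 genes nearest to Il10 were Itgal at 0.05 and Pde4b at 0.16, and 4 genes lay within 0.2. Itgal measured 8877 on CpG, 3527 on IFN-γ + αIL-10R, and 28053 on Triple, close to Il10 in its log2 folds of 1.66, 2.99, and 1.33. Another of its probes gave 1.59, 3.09, and 1.5, and a dim one 0.70, 1.04, and 0.34. Nearest to Socs3 were Gypc at 0.01 and Akap2 at 0.11, with 6 genes within 0.2, but a dim further probe of Akap2 gave 1.74, 1.85, and 0.11 in place of 1.78, 2.71, and 0.92. Nearest to Bcl3 were Slc39a13 at 0.04 and Mmp8 at 0.08, with 12 within 0.2. Stat3 was nearest to Etv6 and Tmem178, both at 0.02, with 24 within 0.2. Etv6 measured 1489 on CpG, 3347 on IFN-γ + αIL-10R, and 4422 on Triple. Il10 and Socs3 thus had few neighbours on these arrays.

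Il10ra was nearest to Flrt2 at 0.03 and Ifnl3 at 0.04, and 58 genes lay within 0.2. For Nfil3 the nearest were Plekhg3 at 0.03 and Cd300lg at 0.04, with 64 within 0.2. Members that varied less had many near neighbours, with 1732 within 0.2 of Etv3, 1286 of Il10rb, 569 of Sbno2, and 291 of Il4ra. Their nearest genes were Cisd3 and Sec31a for Etv3, Ywhah and Ntrk2 for Il10rb, Kdm5c and Phf23 for Sbno2, and Ankrd44 and Ift27 for Il4ra. The neighbours and counts of Sbno2 and Il4ra hold for their brighter probes only, at 0.32 and −0.61 in Triple against CpG. Their dimmer probes gave −0.53 and 0.54 there. The other Cisd3 probe gave 0.04, 0.06, and 0.02 in place of −0.02, 0.24, and 0.26, and the other Ntrk2 probes were not well above background on any array.

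Markers were read to check that the RNA came from macrophages and to set other cell types beside the members. All 8 measured macrophage markers of 9 listed were well above background on each array, with a summed signal of 795280 on CpG, 789401 on IFN-γ + αIL-10R, and 706675 on Triple, and Tyrobp had the highest sum over the arrays, at 195782, 217672, and 173802. None of the measured NK cell (3), mast cell or eosinophil (3), and erythroid (4) markers was well above background on any array. Of 4 measured T cell markers only Cd3e was, at 842, 867, and 822, and Cd3d, Cd3g, and Cd8a were not. Of 5 B cell markers 2 were, with a sum of 852, 257, and 154, most of it Cd79b at 786, 182, and 110, and Ms4a1 and Pax5 were not. Neutrophil markers summed to 3694, 9356, and 4951 with 4, 3, and 4 of 6 well above background by their brighter probes (4 on each array if the dimmer Camp probe counts), Ly6g had the highest sum over the arrays at 545, 7688, and 2712, Elane was above it on CpG at 2786, and Mpo and Ngp were not. Dendritic cell markers summed to 35410.0, 35958, and 30537 with 1, 2, and 3 of 4 well above background, nearly all of it Siglech, and Flt3 was not. Stromal markers summed to 523, 310, and 485 with 3, 2, and 3 of 4 well above background, Col1a2 was highest on each array, and Pdgfra was not. Each sum is set by its brightest probes, so it describes a list only roughly, and single markers differed from it. Over all genes, 7.47%, 6.57%, and 5.06% were called higher in the 3 comparisons and 8.34%, 9.31%, and 5.84% lower. In Triple against CpG, the calls were 1 macrophage marker higher (Mertk), 1 B cell marker lower (Cd79b), 1 neutrophil marker higher (Ly6g), and 2 dendritic cell markers higher (Zbtb46 and Xcr1, both as bounds). In Triple against IFN-γ + αIL-10R, they were 1 macrophage marker higher (Cd14) and 1 lower (Cd68), 2 neutrophil markers higher (S100a8 and, by its brighter probe, Camp) and 1 lower (Ly6g), 2 dendritic cell markers higher (Zbtb46 and, as a bound, Xcr1), and 1 stromal marker higher (Col3a1, as a bound). In CpG against IFN-γ + αIL-10R, they were 2 macrophage markers higher (Itgam and Cd14) and 2 lower (Mertk and Fcgr1), 1 B cell marker higher (Cd79b), and 2 neutrophil markers higher (S100a8 and, by its brighter probe, Camp) and 1 lower (Ly6g). The dimmer Camp probe, at 37.8, 44.5, and 84.1, was well above background on each array and gave 0.92 and −0.24 in these last comparisons, so neither Camp call held by it. In Triple against CpG it gave 1.15, past 2-fold, where the brighter Camp probe gave 0.98 and was not called. Other Itgam probes, well above background on each array, gave 0.78 and 1.32 in CpG against IFN-γ + αIL-10R, so the first lost the call. In Triple against IFN-γ + αIL-10R they gave 0.59 and 1.16, and the brightest Itgam probe, not called there, gave 0.66. The part of other cell types in the member signals was not tested.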

How the data were processed

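For each of 3 arrays the authors deposited scanner values (Agilent Feature Extraction 10.10.1.1) with a linear, background-subtracted intensity per spot, and a table of log2 values. Columns of that table equalled the log2 intensity less a constant for each array, which no source states; its medians were −4.26 (CpG), −4.36 (IFN-γ + αIL-10R), and −4.26 (Triple), and it served as an alternative. Control spots and spots with outlier marks were left out, and spots of a probe were averaged as log2. Arrays were scaled to the 75th percentile of the 21233 of 52752 probes well above background on all arrays. Signals below the lowest one well above background (23.3, 26.6, and 26.9) were raised to it. A gene took its probe with the highest mean. Of 13 member probes, 12 had a RefSeq accession, and all 12 matched the same symbol. All arrays shared 1 slide and 1 scan time. Members and gene lists were chosen with earlier results of these data known. Named were all members and the 2 nearest genes of each, and the list genes named were taken from those called at least once (in lists with over 6, from the 4 largest) with Jak1 and Tyk2; list genes not called, dim, or not measured are named as such outside this rule. Alternatives varied background correction (normexp, limma 3.58.1, R 4.3.3), scaling, filter, probe choice, outlier spots, and threshold. Scripts used Python 3.11.15, numpy 2.4.6, pandas 2.3.3, and matplotlib 3.10.9, and were tested on simulated data.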

Additional observations from a re-analysis of the deposited data

How the results depend on the processing

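No paired analysis was possible because no condition had a replicate. The 15 alternatives for counts gave 90 values for the 6 member counts, of which 81 lay within 1.5 times the reported count. A 1.5-fold threshold gave 1 member lower in Triple against CpG, and 5 higher and 1 lower in Triple against IFN-γ + αIL-10R. A 3-fold threshold gave 2 higher in Triple against CpG, and 1 higher and 0 lower in CpG against IFN-γ + αIL-10R. These follow from the thresholds. Without scaling, with spike-in scaling (5 of 10 control probes), and relative to Actb, 1 member (Il4ra) was lower in Triple against IFN-γ + αIL-10R. Its reported log2 fold there was −0.99, just short of the threshold. These settings moved the median of all genes in that comparison by −0.03, −0.13, and −0.09. Scaling moved the median of all genes by over 0.1 in that comparison alone: by 0.11 with the 75th percentile over all probes, 0.11 with median scaling, 0.11 with the authors' table, and −0.13 with spike-in scaling. Of 390 member folds under 13 alternatives, 368 moved by less than the technical SD, 22 moved by more, and 0 called folds changed sign. The 81 counts and 368 folds include values that could not change. Filters could not alter a member value, nor could probe choice alter a fold of a member with 1 probe. For the gene lists other than the cell markers, alternatives chosen after seeing the data gave 900 counts, 832 within 1.5 times the reported ones. For the genes of these lists called at least once, they gave 1663 folds, 1526 moved by less than the technical SD and 0 called ones with a changed sign. The counts of the marker lists were not run under the alternatives. On the arrays 46.0% (CpG), 44.8% (IFN-γ + αIL-10R), and 44.4% (Triple) of 59305 spots were well above background, and dimmer genes have bounds only.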
